A study of Gallus gallus with 21 samples.

Results

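The cerebrum of adult hens was compared with that of embryos over whole periods, across the expression levels of all mRNAs and lncRNAs. The adult period comprised 7 libraries of hens 1, 3 and 5 years old (3 of Y1, 2 of Y3, 2 of Y5), and the embryonic period comprised 8 libraries of embryonic days 12, 16 and 20 (3 of E12, 3 of E16, 2 of E20). These 15 libraries were chosen by stage out of the 21 of the series, and 3 libraries of D100, hens 100 days old, were placed between them afterwards. D300, with 3 libraries, was not used here. All birds were untreated female Tibetan chickens, each library came from 1 bird, and the sex of the embryos had been determined by PCR on the Z and W chromosomes. Eggs were incubated, D100 hens were kept at a farm in Ya'an, and the adult hens were collected in Lhasa, so age and place of rearing cannot be told apart.

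Embryonic days 12 to 20 cover later development of the avian forebrain before hatching, including its early wiring. After hatching the cerebrum gains synapses, glia and myelin, and the share of dividing cells falls. Long noncoding RNAs (lncRNAs) are transcripts that are not translated, many of which are restricted to certain tissues or stages. In these bulk samples, fewer cells of a type and less RNA per cell cannot be told apart.

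Levels are given as log2(FPKM+1), FPKM being a fragment count corrected for the length of a transcript and for the total mapped in that library. The number of fragments behind a value is unknown, and on this scale the change of a weakly expressed transcript is smaller than in FPKM. Each library had FPKM above 0 for 14240 to 14501 of the 14558 mRNAs. No 2 libraries held identical values. The summed FPKM of the 37 mRNAs of chromosome W, which only female birds carry, was 309 to 377 in the adults and 413 to 516 in the embryos, so every library held W transcripts. No gene name could be assigned to the Ensembl identifiers of the mRNAs (0 of 14558 matched), so cell type markers and pathways were not analysed here.

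In the adult cerebrum 376 mRNAs were up-regulated and 227 down-regulated relative to the embryos. These 603 were 4.14% of the 14558 mRNAs tested, with 2.58% higher and 1.56% lower in adults. An mRNA was called when the difference between the period means was at least 1, a fold change (FC) of at least 2 or at most 0.5 in FPKM+1, with a Bonferroni-adjusted p of at most 0.05 from limma. The median size of the called differences was 1.70 among up-regulated and 1.66 among down-regulated mRNAs. A difference of at least 3 was found for 32 up-regulated and 23 down-regulated mRNAs, and one of at least 4 for 12 and 1. Differences of at least 4 were thus nearly all increases.

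Most of the changed mRNAs were present in both periods at different levels. The median level of the 376 up-regulated mRNAs was 4.67 in adults and 2.67 in embryos, and 81 of them (21.5%) had an embryonic mean under 1. The median level of the 227 down-regulated mRNAs was 3.55 in adults and 5.42 in embryos, and 20 of them (8.81%) had an adult mean under 1. No called mRNA was at 0 in all libraries of a period. Of the 643 mRNAs with a mean FPKM of at least 100, 11% were called, 33 higher and 38 lower in adults. Between 1 and 10 FPKM the share was 3.17% of 5830 mRNAs, with 139 higher and 46 lower. Down-regulated mRNAs outnumbered up-regulated ones only in the most abundant class.

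**Figure D1:**
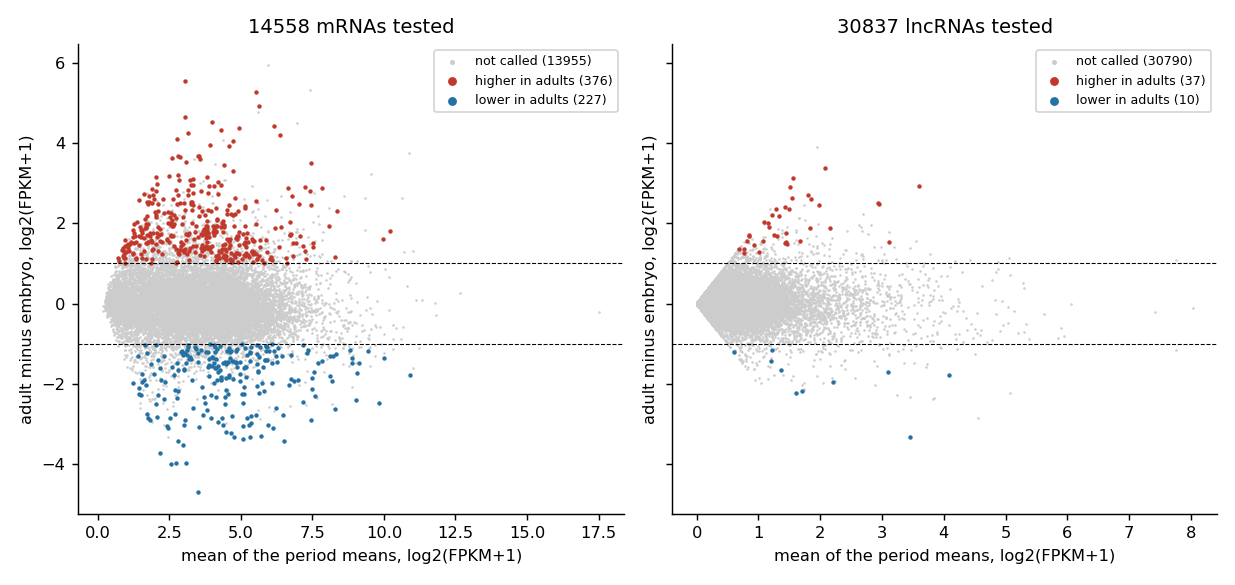
The difference of adult minus embryonic mean (y axis, log2(FPKM+1)) is plotted against the mean of both period means (x axis, log2(FPKM+1)) for each mRNA (left) and lncRNA (right) tested, with dashed lines at differences of 1 and -1. Red points are the 376 mRNAs and 37 lncRNAs higher in adults, blue points the 227 mRNAs and 10 lncRNAs lower in adults, and grey points were not called.

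In 368 of the 376 up-regulated mRNAs the lowest adult library lay above the highest embryonic one, and in 225 of the 227 down-regulated mRNAs the highest adult library lay below the lowest embryonic one. Over all mRNAs tested, 5.87% were separated with adults higher and 5.03% with adults lower. Separation was read in the same libraries that gave the calls, and the calls favour separated transcripts, so it is no separate result. A further 195 separated mRNAs with a difference of at least 1 were higher and 184 lower in adults without passing the Bonferroni adjustment. For 9370 mRNAs (64.4%) the 95% interval of the difference lay wholly between -1 and 1, so for these a 2-fold change in FPKM+1 between the periods lay outside the interval.

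Single stages of the periods were compared in the same libraries that gave the calls, so these differences are a description. A difference of at least 1 in all 9 pairs of an adult and an embryonic stage was found for 203 up-regulated mRNAs (54.0%) and 117 down-regulated mRNAs (51.5%). The median difference of the up-regulated mRNAs was largest for Y3 minus E12, at 1.95, and smallest for Y5 minus E20, at 1.36. That of the down-regulated mRNAs was largest for Y5 minus E16, at -1.90, and smallest for Y1 minus E20, at -1.30. E20, just before hatching, was the embryonic stage nearest to the adults in both directions.

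Within the embryos E20 was shifted towards the adults. It lay beyond both E12 and E16 on the adult side for 238 of the up-regulated mRNAs (63.3%), against 32.5% of all mRNAs in that direction. It did so for 162 of the down-regulated mRNAs (71.4%), against 44.8% of all mRNAs. These orders lie within the embryos that were used for the calls and are given as a description. Across the adult stages the medians of the up-regulated mRNAs were 4.65 (Y1), 4.70 (Y3) and 4.61 (Y5), whereas those of the down-regulated mRNAs were 3.69, 3.45 and 3.42. The calls favour transcripts with little spread within a period, so the closeness of the adult stages is no separate result.

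**Figure D2:**
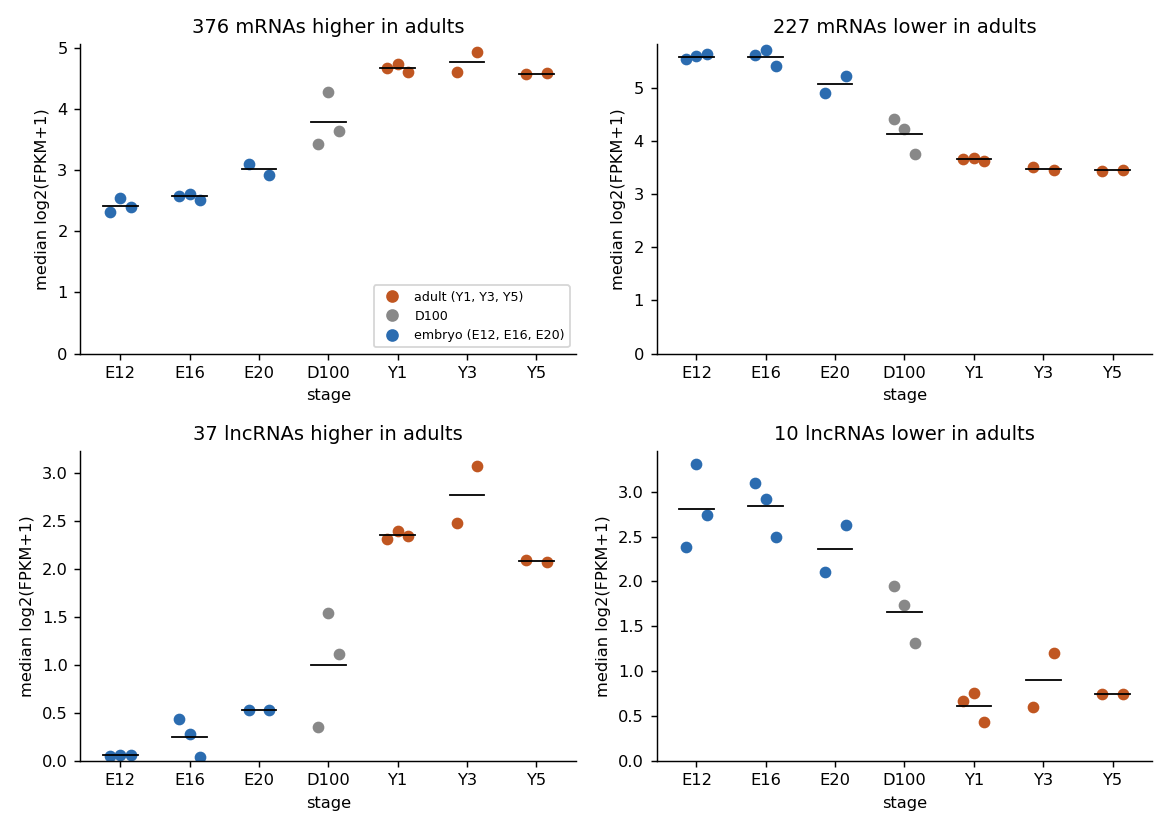
Each point is the median log2(FPKM+1) in 1 library over the mRNAs (top) or lncRNAs (bottom) called higher (left) or lower (right) in adults, by stage, and bars mark the mean of the libraries of a stage. The 3 D100 libraries (grey) lie between the adult (orange) and embryonic (blue) libraries in all panels except that 1 D100 library of the up-regulated lncRNAs, at 0.35, lies among the embryos.

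Spread within a period differed little for the up-regulated mRNAs, with a median SD of 0.36 in adults and 0.38 in embryos. For the down-regulated mRNAs it was 0.31 in adults and 0.42 in embryos, and the adult SD was the larger for 67 of 227 (29.5%), against 39.4% of all mRNAs tested. The embryonic SD includes the change between E12 and E20.

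The number of calls depended on the adjustment and on which birds counted as replicates. With Benjamini-Hochberg adjustment 1062 mRNAs were higher and 806 lower in adults (12.8% of all). When each stage entered as 1 value, 3 against 3, 14 were higher and 4 lower.

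The mRNAs with the largest called differences in each direction, among those whose periods did not overlap, are described one by one. ENSGALG00000011551, on chromosome 4, had a level of 3.49 at the lowest, 5.80 at the median and 7.25 at the highest in the 7 adult libraries, against 0, 0.16 and 1.13 in the 8 embryonic libraries. It was at 0 in 3 of the 8 embryos. The mRNA was nearly silent in embryos and expressed in each adult hen, least in Y3 replicate a. The difference was 5.56 (SE 0.45, limma, Bonferroni-adjusted p = 7.35e-06). In the D100 libraries it was 0.85, 0.76 and 3.23, and adults minus D100 gave 4.23 (standard error 0.64, adjusted p = 0.0333 from limma).

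ENSGALG00000006995, on chromosome 9, ranged in adults between 7.22 and 8.55 with a median of 8.36, against 0.75 to 5.09 with a median of 2.76 in embryos. The difference was 5.27 (standard error 0.59, adjusted p = 0.00114 from limma). Within the embryos its stage means were 1.58 at E12, 2.76 at E16 and 5.07 at E20. The level was thus graded within the embryonic period, and of the D100 libraries 2.09 lay inside the embryonic range and 6.69 and 6.19 between the periods. Without the stage Y1 its adjusted p was 0.0776 from limma. Over the 30 alternatives it lay between 5.63e-06, with Benjamini-Hochberg in place of Bonferroni adjustment, and 1.

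ENSGALG00000012834, on chromosome 1, showed the largest fall. Its level in adults was 0.58 at the lowest, 0.90 at the median and 2.18 at the highest, against 4.51, 5.76 and 7.33 in embryos, a difference of -4.71 (standard error 0.41, adjusted p = 2.08e-05 from limma). Over the 30 alternatives the adjusted p lay between 4.87e-08 and 0.272, the highest with each stage as 1 value. Its stage means in embryos were 6.98 at E12, 5.64 at E16 and 4.54 at E20. The fall therefore ran through the embryonic period. The D100 libraries, at 2.36, 2.64 and 1.69, were lower than every embryo, and D100 minus embryo gave -3.64 (standard error 0.51, adjusted p = 0.0116 from limma).

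ENSGALG00000001141, on chromosome 21, lay between 0 and 1.26 in adults with a median of 0.64, against 1.96 to 6.42 with a median of 4.88 in embryos. The difference was -4.00 (standard error 0.57, adjusted p = 0.0271 from limma), and the D100 libraries had 2.97, 2.42 and 2.17. Within its wide embryonic range, E20 had a mean of 2.19 and E12 one of 5.97. This call was the least firm of the 4, since leaving out any of 12 of the 15 libraries (all but E12 replicate 3 and the 2 of E20) gave an adjusted p above 0.05, up to 0.111 without Y1 replicate 3, and over all 30 alternatives the adjusted p lay between 9.37e-08 and 1.

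**Figure D3:**
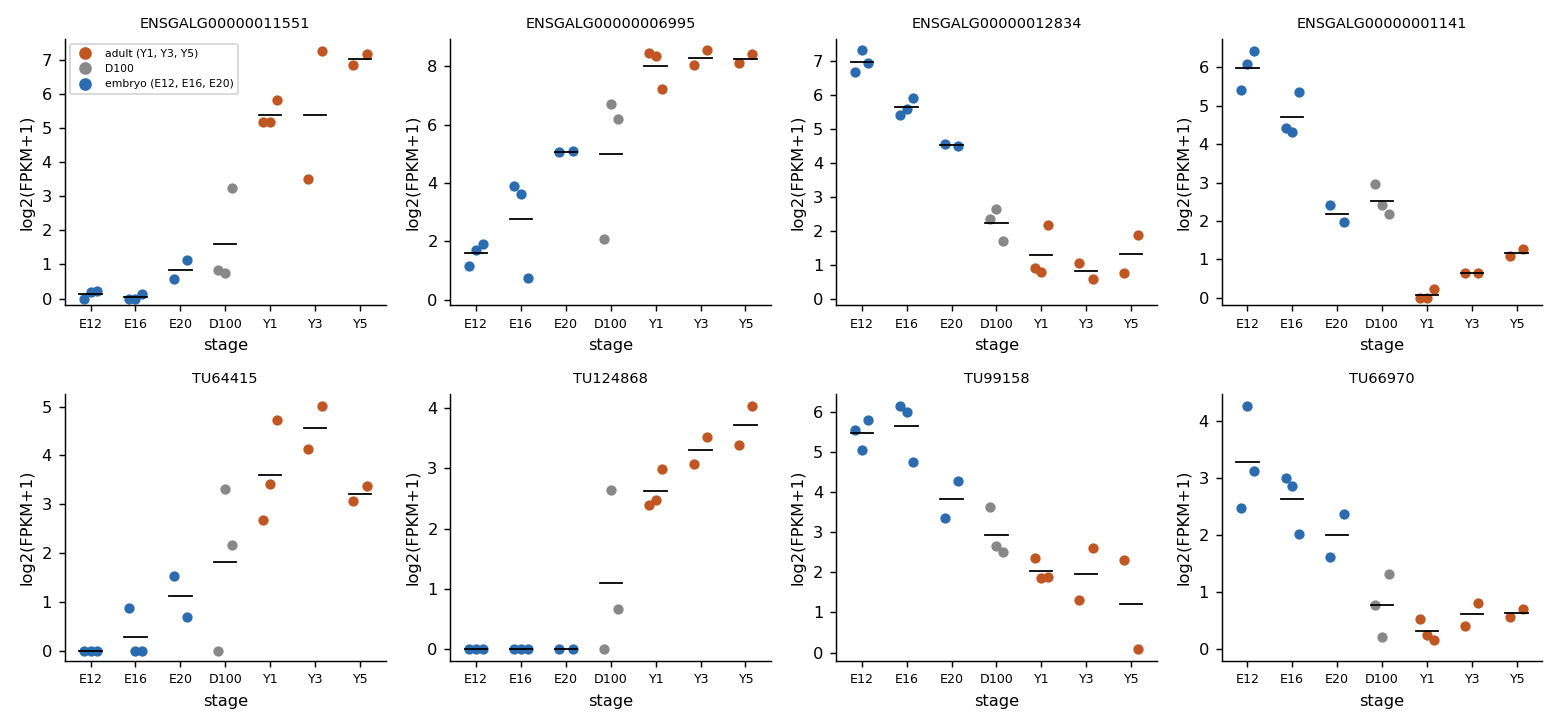
Levels in log2(FPKM+1) (y axis) of 4 mRNAs (top) and 4 lncRNAs (bottom) are shown by stage (x axis). Each panel has 1 point per library and bars at stage means. The transcripts had, separately for rises and falls, the largest called differences among those whose periods did not overlap. The lncRNAs also had a value in every library of the higher period. By this choice adult libraries (orange) and embryonic libraries (blue) do not overlap in any panel, and TU124868 is at 0 in all 8 embryos.

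The changed mRNAs were spread over the genome, with 2 small groups well above the rest. On the 27 numbered chromosomes with at least 100 mRNAs, between 0% (chromosome 22) and 6.8% (chromosome 13, of 309 mRNAs) were called, with a median of 3.88%. On chromosome 22, 51 of 110 mRNAs had an unadjusted p of at most 0.05 from limma, against 6666 of all 14558 mRNAs. On the mitochondrial genome 7 of 30 mRNAs (23.3%) were called, all higher in adults, and on chromosome 16 it was 7 of 29 (24.1%), 6 higher and 1 lower. Both shares are to be read beside the 4.14% of all mRNAs.

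**Figure D4:**
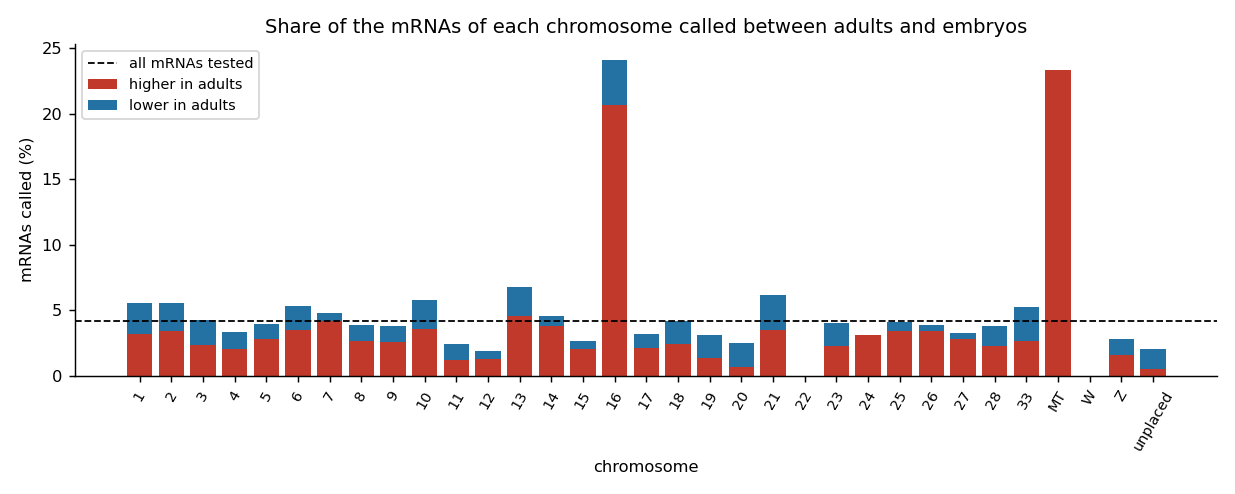
Bars give the share of mRNAs called (y axis, %) on each chromosome with at least 20 mRNAs (x axis), split into higher (red) and lower (blue) in adults, and the dashed line marks the 4.14% of all mRNAs. Chromosome 16 (24.1%) and the mitochondrial genome (MT, 23.3%) exceed all other chromosomes, and chromosomes 22 and W have no call.

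The mitochondrial genome encodes subunits of the respiratory chain together with ribosomal and transfer RNAs, and the table lists more entries for it than it has protein-coding genes. Of these 30 entries, 28 were higher in the mean of adults, against 6846 of all 14558 mRNAs. The median difference of the 30 entries was 1.78, against -0.04 over all mRNAs. The called entries differed by 1.60 to 4.32. The number called was 7 after median-ratio scaling and lay between 2 and 22 over all 30 alternatives, with none lower in adults in any of them.

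Mitochondrial entries held 1.52% to 5.62% of the summed FPKM of the mRNAs in adults, with a median of 2.56%, against 0.427% to 1.66% with a median of 0.714% in embryos. The mean was 3.07% ± 1.62 in adults and 0.799% ± 0.407 in embryos (SD, n = 7 and 8). The difference was 2.27 percentage points (two-sided exact permutation test, p = 0.000932, Benjamini-Hochberg adjusted p = 0.00186 over the 8 tests of per-library measures). The highest embryo, E16 replicate 3, overlapped the 2 lowest adults. The share was 2.56%, 1.75% and 1.58% in the libraries of Y1, 1.52% and 4.10% in those of Y3 and 4.35% and 5.62% in those of Y5, and without Y5 the difference was 1.504 percentage points. In D100 the share was 1.07%, 1.96% and 28.8%, so that D100 replicate 3 lay far outside both periods.

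Chromosome 16 of the chicken is a microchromosome that carries the major histocompatibility complex, whose genes present antigens to immune cells, and the ribosomal DNA repeats. Its 6 up-regulated mRNAs differed by 2.18 to 4.52 and its down-regulated one by -1.65. In all, 21 of its 29 mRNAs had a higher mean in adults, against 6846 of all 14558 mRNAs. The median difference on chromosome 16 was 0.40, against -0.04 over all mRNAs. After median-ratio scaling 6 were higher and 1 lower. When each stage entered as 1 value, 3 were higher and 0 lower. Genes of the histocompatibility complex are often near-identical copies, between which reads can be divided arbitrarily, so the values of single members are uncertain.

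On the sex chromosomes the calls were few. Of the 640 mRNAs of chromosome Z, 10 were higher and 8 lower in adults (2.81%). Of the 37 mRNAs of chromosome W, 0 were called in either direction by limma, and 2 were lower with Benjamini-Hochberg adjustment. An unadjusted p of at most 0.05 from limma was found for 9 of the 37, against 6666 of all 14558 mRNAs. The summed FPKM of the 37, however, was lower in every adult than in every embryo. Its means were 346 ± 24.4 in adults and 463 ± 34.8 in embryos (SD, n = 7 and 8). The two-sided exact permutation test gave p = 0.000311, the smallest that a shuffle of single libraries allows (adjusted p = 0.00124). A sum is weighted towards abundant mRNAs. Taken singly, 16 of the 37 had a higher mean in adults, 2 were lower without overlap, and the median difference was -0.12. On unplaced scaffolds 6 mRNAs were higher and 18 lower out of 1176 (2.04%).

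Among lncRNAs 37 were up-regulated and 10 down-regulated in adults. These 47 were 0.152% of the 30837 lncRNAs with a value in at least 2 of the 15 libraries, with 0.12% higher and 0.0324% lower, and a missing value was taken as 0. Benjamini-Hochberg adjustment gave 142 higher and 72 lower (0.694%). The median size of the called differences was 1.89 among up-regulated and 1.75 among down-regulated lncRNAs. The median level of the 37 up-regulated lncRNAs was 2.32 in adults and 0.31 in embryos, with an embryonic mean under 1 in 32 of them. That of the 10 down-regulated lncRNAs was 0.63 in adults and 2.75 in embryos. Most changed lncRNAs thus had a mean level under 1 in the period in which they were lower. By another measure, the mean FPKM over both periods, 26584 of the 30837 lncRNAs tested lay under 1. Among the called lncRNAs, 3 of the up-regulated and 1 of the down-regulated did so.

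The 2 periods did not overlap in 36 of the 37 up-regulated and in all 10 down-regulated lncRNAs. Of all lncRNAs tested, 0.574% were separated with adults higher and 0.256% with adults lower. As for the mRNAs, the calls favour separated transcripts, so this is no separate result. In the libraries used for the calls, a difference of at least 1 in all 9 pairs of stages was found for 33 up-regulated and 8 down-regulated lncRNAs. In the adults the SD of the up-regulated lncRNAs had a median of 0.51, and in the embryos one of 0.29. The adult SD was the larger in 32 of 37, against 53.1% of all lncRNAs tested. The median embryonic level of the 37 was 0.31, close to 0, and the part of this in the SDs was not tested. The identifiers of 10 of the 47 lncRNAs lay within 20 numbers of that of another called lncRNA. Positions of lncRNAs were not analysed here, so how many loci the 47 came from is unknown.

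The share of lncRNAs called differed by level. Of the 26584 lncRNAs with a mean FPKM under 1, 3 were higher and 1 lower in adults (0.015%), whereas of the 4081 between 1 and 10 FPKM, 32 were higher and 7 lower (0.956%). A call needed a difference of at least 1 in log2(FPKM+1), which a mean FPKM under 1 leaves little room for. The low share under 1 FPKM is therefore largely set by the threshold and is no separate result. Single libraries listed 12618 to 19227 lncRNAs with a value in adults, with a median of 16590, against 13480 to 20975 with a median of 17783 in embryos. The ranges overlapped. The means of 16297 ± 2324 in adults and 17316 ± 2190 in embryos (SD, n = 7 and 8) did not differ beyond the spread within periods (two-sided exact permutation test, p = 0.4, adjusted p = 0.51). With FPKM above 1, the counts were higher in adults by 525.6 on average (two-sided exact permutation test, p = 0.0618, adjusted p = 0.099).

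Few lncRNAs were switched fully on or off. A value in all 7 adult and in 0 of the 8 embryonic libraries was found for 18 lncRNAs, of which 3 were called. Their adult means lay between 0.17 and 3.13 with a median of 0.77, so most were weak. Of these 18, 2 had a value in all 3 D100 libraries, 12 in some and 4 in none. The reverse pattern, with 0 of 7 adults and 8 of 8 embryos, was found for 9 lncRNAs, of which 1 was called, and 6 of the 9 had no value in D100.

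TU64415 was the lncRNA with the largest called rise. Its level was 2.68 at the lowest, 3.41 at the median and 5.01 at the highest in adults, against 0, 0 and 1.54 in embryos, where 3 of 8 libraries had a value. The difference was 3.38 (SE 0.35, limma, Bonferroni-adjusted p = 0.000352). The D100 libraries had no value, 3.31 and 2.18. With missing values left out in place of 0, the difference over the remaining embryos was 2.73 and the adjusted p 0.928 (between 5.73e-05 and 1 over the 32 alternatives).

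TU124868 had a value in every adult library, between 2.39 and 4.04 with a median of 3.08, and in no embryonic library. On the log2(FPKM+1) scale the difference was 3.13 (standard error 0.22, adjusted p = 5.26e-07 from limma). No fold is given since all embryos were taken as 0. In D100 it had no value in replicate 1, 2.64 in replicate 2 and 0.66 in replicate 3. It was called in each of the 31 alternatives in which it was tested. With missing values left out it could not be tested, since no embryo had a value. The call therefore rests on missing embryonic values taken as 0.

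TU66970 was among the lncRNAs that fell. It lay between 0.17 and 0.81 in adults with a median of 0.53, against 1.62 to 4.27 with a median of 2.67 in embryos, a difference of -2.22 (standard error 0.30, adjusted p = 0.0179 from limma). The D100 libraries, at 0.77, 0.22 and 1.32, were all below the lowest embryo. Leaving out any of 8 libraries (E12 replicate 3, E16 replicates 1 and 2, the 3 of Y1, Y3 replicate a and Y5 replicate a) gave an adjusted p above 0.05, up to 0.0797 from limma. Over all 32 alternatives it lay between 0.000459, with Benjamini-Hochberg in place of Bonferroni adjustment, and 1.

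The study had designed qPCR primers for 10 lncRNAs, and these were looked up in the same contrast. The 4 with the largest differences are shown by their primer pairs, which are the only sequences of these transcripts used here and are written 5′ to 3′.
TU99158 forward: tggtcaaggcgtagagggta
TU99158 reverse: atggggtttgctggcatgta
TU26292 forward: tccaggacccaaatacccct
TU26292 reverse: agcagagccccttaacatgg
TU50759 forward: cgttggcaaaggggtttctg
TU50759 reverse: acgtggaccataccttgcac
TU56811 forward: aagccttggtggactagagc
TU56811 reverse: tagtagctttgcagaggattgt

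Of these 10 lncRNAs, 1 was called lower in adults and 9 were not called, against 0.152% called of all lncRNAs tested. Of the differences, 5 were above 0 and 5 below 0. The study took them from its differentially expressed lncRNAs in these libraries, so their share is not independent evidence. It reported that their qPCR patterns followed the sequencing across stages. A period mean can hide such changes: TU167089 had stage means of 1.80 at E12, 4.51 at E20 and 1.60 at Y5. TU99158 was the called one and had the largest fall of all called lncRNAs. Its level in adults was 0.10 at the lowest, 1.89 at the median and 2.60 at the highest, against 3.35, 5.30 and 6.14 in embryos. The difference was -3.34 (standard error 0.43, adjusted p = 0.00924 from limma). The D100 libraries had 3.63, 2.66 and 2.50, which placed 1 inside the embryonic range, 1 between the periods and 1 inside the adult range. Without a single stage other than E20 the adjusted p from limma lay above 0.05, up to 0.434 without E12. Over all 32 alternatives it lay between 0.00028, with Benjamini-Hochberg in place of Bonferroni adjustment, and 1.

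TU26292 also separated the periods but did not pass the adjustment. Its level in adults was 0.79 at the lowest, 2.98 at the median and 4.35 at the highest, against 5.29, 6.07 and 6.67 in embryos, a difference of -2.85 (standard error 0.44, adjusted p = 0.115 from limma). All but 1 of the D100 libraries, at 5.46 and 6.38, lay inside the embryonic range, the other being 4.96, so this lncRNA was still at or near its embryonic level at 100 days. Without Y5 replicate b the difference was -2.46 and the adjusted p 0.0358 from limma. Over the 32 alternatives it lay between 0.00188, with Benjamini-Hochberg in place of Bonferroni adjustment, and 1.

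TU50759 and TU56811 had the largest positive differences among the 10. TU50759 had a median of 4.28 in adults and 3.02 in embryos, a difference of 1.37 (95% interval 0.60 to 2.15). TU56811 had a median of 4.40 in adults and 2.84 in embryos, a difference of 1.23 (95% interval 0.53 to 1.93). Both overlapped between periods and were not called. TU166039 and TU6367 had differences of -0.94 and -0.90, with intervals of -1.49 to -0.38 and -1.38 to -0.41. TU38242, at 0.01 (interval -0.50 to 0.52), and TU178751, at -0.10 (interval -0.92 to 0.72), had intervals wholly between -1 and 1. TU45029 and TU167089 differed by 0.46 and 0.18, with intervals of -0.15 to 1.07 and -1.08 to 1.43.

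The D100 libraries were then placed between the periods for the changed transcripts. They had not entered the calls. The position of a transcript at D100 was the D100 mean minus the embryonic mean, divided by the adult mean minus the embryonic mean, so that 1 is the adult level and 0 the embryonic level. Over the 603 called mRNAs the median position was 0.63. It was 0.54 over the up-regulated mRNAs (quartiles 0.29 and 0.77) and 0.80 over the down-regulated mRNAs (quartiles 0.58 and 0.97). On these values the median down-regulated mRNA lay nearer to the adult level at 100 days than the median up-regulated mRNA. After median-ratio scaling, with the calls remade, the medians were 0.60 over up-regulated and 0.72 over down-regulated mRNAs, a smaller gap. The difference between the sets was not tested.

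Sorted by range, the D100 mean of the up-regulated mRNAs lay only in the adult range for 100, between the ranges for 129 and only in the embryonic range for 132. For the down-regulated mRNAs the counts were 109 in the adult range, 66 between and 40 in the embryonic range. A further 12 mRNAs in each direction lay beyond the adult range. All 3 D100 libraries were past every embryo in 139 of the 376 up-regulated and in 152 of the 227 down-regulated mRNAs. The same count was not made for all mRNAs, and the calls favour transcripts with little spread among the embryos. These counts therefore describe the called mRNAs only. Over all mRNAs the median level was 3.37 in D100, against 3.51 in adults and 3.51 in embryos. The part of this lower level in the counts was not tested.

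**Figure D5:**
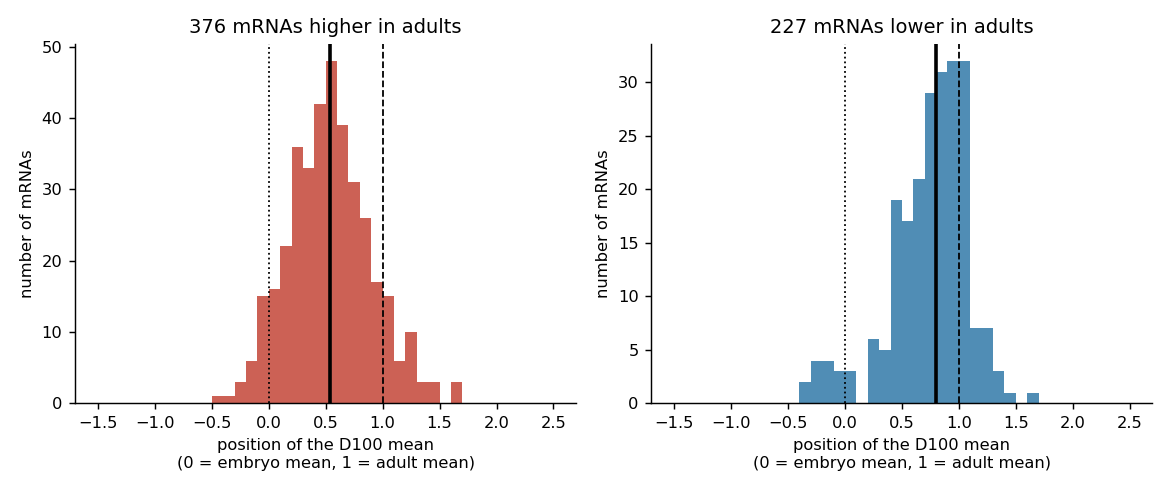
The number of mRNAs (y axis) is plotted by the position of their D100 mean (x axis, dotted line 0 at the embryonic mean, dashed line 1 at the adult mean), for mRNAs higher (left) and lower (right) in adults, and the thick line is the median. The medians are 0.54 for the 376 up-regulated mRNAs and 0.80 for the 227 down-regulated mRNAs.

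The 3 D100 birds did not lie at the same place. For the up-regulated mRNAs the median position was 0.44 in replicate 1, 0.74 in replicate 2 and 0.44 in replicate 3, and 94, 196 and 90 of the 376 reached the adult range. For the down-regulated mRNAs it was 0.62, 0.75 and 0.99, and 82, 111 and 173 of the 227 reached the adult range. Replicate 3 was at the adult level for down-regulated mRNAs while it was among the lower for up-regulated mRNAs. This library is the one in which mitochondrial entries held 28.8% of the summed FPKM, and the part of that share in its position was not tested. Without replicate 3 the median position was 0.59 over up-regulated and 0.69 over down-regulated mRNAs, a smaller gap than over all 3 libraries.

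The comparisons of D100 with each period were also made in a fit of all 18 libraries with 3 period means. They share libraries with each other and with the main comparison. D100 minus embryo called 63 mRNAs higher and 72 lower (0.927% of all tested), and adult minus D100 called 12 higher and 16 lower (0.192%). Over the 376 up-regulated mRNAs the median difference was 0.88 for D100 minus embryo and 0.78 for adult minus D100. Over the 227 down-regulated mRNAs it was -1.34 for D100 minus embryo and -0.37 for adult minus D100. With 3 libraries of D100, the same difference carries a larger standard error than between the periods.

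For up-regulated lncRNAs D100 lay nearer to the embryos. The median position was 0.34 over the 47 called lncRNAs, 0.33 over the 37 up-regulated and 0.56 over the 10 down-regulated ones. Single libraries moved these values, to 0.19 over the up-regulated lncRNAs without D100 replicate 2 and to 0.89 over the down-regulated ones without E20 replicate 1. Among up-regulated lncRNAs the D100 mean lay in the adult range for 8, between the ranges for 13 and in the embryonic range for 16, and among down-regulated ones for 4, 2 and 4. The 3 libraries differed, with median positions of 0, 0.46 and 0.29 over the up-regulated and 0.29, 0.66 and 0.71 over the down-regulated lncRNAs. D100 replicate 1 was thus at the embryonic level in the median up-regulated lncRNA. The D100 libraries listed 13509 to 14952 lncRNAs with a value, with a median of 14522, against medians of 16590 in adults and 17783 in embryos. Missing values were taken as 0, and the part of this in the positions was not tested. D100 minus embryo called 3 lncRNAs higher and 2 lower (0.0162%), and adult minus D100 called 2 higher and 1 lower (0.00973%).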

How the data were processed

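RNA of the cerebrum was depleted of ribosomal RNA and sequenced with paired reads. By the authors' description, HISAT2 was used to align reads to the chicken genome Gallus_gallus-5.0, transcripts were assembled with StringTie 1.3.3, and Cufflinks 2.2.1 is named in the processing notes. The authors deposited log2 values of FPKM after adding 1, per mRNA and per lncRNA. These are not counts, so no counting error can be given, and the read numbers that the study lists per library were not used here. The strand setting of the quantification is not given in the sources used here. Of the value columns, 3 per file name no stage and were not used. The libraries of Y3 and Y5 carry column names that do not match single samples, so they served as replicates a and b of their stage.

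Libraries were grouped by stage and period. Periods were compared on the deposited log2 values by limma 3.58.1 in R 4.3.3 (2 period means, 15 libraries, a variance that follows the mean level), with Bonferroni adjustment over all mRNAs or all lncRNAs tested. The p-values measure the spread of libraries within a period, which holds differences between stages as well as between birds. They treat libraries of different stages as replicates of a period, and birds of a stage share age and rearing. Values per library were compared by exact permutation over all 6435 arrangements (Python 3.11.15, scipy 1.17.1). The permutation likewise treats libraries of different stages as replicates, and it was not run with each stage as 1 value. The limma procedure was tested on simulated data. These held independent noise per library, with no stages within a period and no missing values, so they do not cover those features of the data. Alternatives were Benjamini-Hochberg adjustment, a pseudocount of 0.1, median-ratio scaling, a mean FPKM of at least 1, other fits of the stages, no trend of the variance, numbered libraries with a replicate block, other treatments of missing lncRNA values, and leaving out each library or stage.

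Named were, in each direction, the 2 called mRNAs and the 2 called lncRNAs with the largest differences whose periods did not overlap (lncRNAs with a value in every library of the higher period), and the 10 lncRNAs with qPCR primers. The members, lists and tests were chosen with earlier results of these data known. Marker lists by gene name could not be applied.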

Additional observations from a re-analysis of the deposited data

Results flagged for a closer look

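Within each period, the lowest and highest library of 45 sets of values were checked for a gap to the next library that is large relative to the range, which chance gives in about 1 of 20 sets. In 4 sets, all of adults, a library stood apart. ENSGALG00000006995 was lowest in Y1 replicate 3 at 7.22, while the other 6 adults lay between 8.03 and 8.55. TU50759 was lowest in Y5 replicate b at 2.92, while the others lay between 4.01 and 4.65. The median position of the up-regulated mRNAs was highest in Y3 replicate b at 1.15, with the other adults between 0.93 and 1.01. The median position of the up-regulated lncRNAs was highest in the same library at 1.33, with the others between 0.89 and 1.07. Y3 replicate b also had the lowest summed FPKM of the mRNAs, 522546, and the lowest share of the most abundant mRNA, 18.6%, and the part of these in its position was not tested.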

How the results depend on the processing

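The called named transcripts and the mitochondrial share kept their direction in all alternatives run, while the difference in lncRNAs with a value, -1019 per library, was 525.6 with FPKM above 1, neither past the threshold. Against 603 mRNAs and 47 lncRNAs, Benjamini-Hochberg adjustment called 1868 and 214, and each stage as 1 value called 18 and 1. A fit of 7 stage means over 18 libraries called 74 lncRNAs. Without a stage the mRNAs numbered 268 (E12), 325 (E16), 998 (E20), 260 (Y1) and 358 (Y3), and the lncRNAs 18 (E12), 12 (E16) and 19 (Y1). Without the stage E20 the median D100 position of called mRNAs was 0.770 in place of 0.626. Leaving out 1 library gave 449 to 775 mRNAs, 37 to 53 lncRNAs, and median D100 positions of 0.575 to 0.698 for mRNAs and 0.251 to 0.423 for lncRNAs. It gave differences of 1.85 to 2.53 percentage points in mitochondrial share (leaving out 1 stage, 1.504 without Y5 to 3.10 without Y1) and of -1567 to -406 in lncRNAs with a value.

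Among the numbered libraries (E12, E16, E20, Y1), the replicate block called 112 mRNAs and 9 lncRNAs, against 179 and 20 from these libraries without the block. Same-numbered libraries correlated above 0.1 in 4 of 15 pairs for mRNAs and in 0 for lncRNAs, so the numbers were not taken to pair birds. What depth limits, including in the numbers of lncRNAs with a value, was not tested. FPKM holds no read counts, and the read numbers that the study lists were not used.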
